A study of Mus musculus with 5 samples.

Results

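The genes examined here are the collagens and the laminins of the mouse, chosen by gene symbol alone: every listed gene whose symbol was Col, a number, a and a number, or Lam, the letter a, b or c and a number. The rule found 55 genes among the 32285 in each of the 5 libraries. Type IV collagens and laminins made up the basement membrane class of 17 genes, and 11 genes encode fibrillar collagens. The other 27 fall into fibril-associated (9), beaded filament (6), transmembrane (4), short-chain network (3), multiplexin (2) and anchoring or other (3) collagens.

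The series profiled single mouse epiblast stem cells (EpiSCs, pluripotent cells that resemble the epiblast before and during gastrulation) by droplet-based 3' RNA sequencing after 3 days of mesoderm differentiation. All 5 conditions shared N2B27 medium with 1 µM Chi, a GSK3 inhibitor that activates WNT/β-catenin signaling, and 8 ng/ml BMP4, and came from wild-type EpiSCs of a single line. They differed in FGF signaling: 30 nM of AZD4547, an FGF receptor inhibitor (FGFRi), or FGF2 at 0, 0.75, 3 or 12 ng/ml. Each condition was 1 library, so library and condition cannot be told apart, no difference has a replicate check, and the intervals below cover counting error only.

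After cells with fewer than 2500 genes or over 10% mitochondrial UMIs (unique molecular identifiers, 1 per captured mRNA) were left out, 1701, 1696, 2725, 2125 and 2406 cells remained with FGFRi and at 0, 0.75, 3 and 12 ng/ml FGF2. Their median depth lay between 24408 and 29661.5 UMIs per cell, lowest with FGFRi. Levels are UMI counts per 1000000 UMIs (CPM) over all retained cells of a library. One UMI is counted per molecule at the 3' end, so levels were not divided by transcript length. Any 2 libraries shared at most 2 cell barcodes. Since these levels are sums over a library, a smaller share of cells that express a gene and less RNA per cell cannot be told apart in them, and values by cell are given after the levels.

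Collagens and laminins are secreted, trimeric proteins that form the scaffold on which cells sit or through which they move. Laminins, each made of an α, a β and a γ chain, polymerize at the cell surface, and type IV collagen adds a second, covalently linked network, so that both together build the basement membrane under an epithelium. Fibrillar collagens such as types I, III and V form the fibers of mesenchymal and connective tissue. During gastrulation, epiblast cells break through the basement membrane as they leave the epithelium at the primitive streak and become mesoderm.

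As a group, these genes were most abundant with FGFRi. Their summed level was 1319.8 CPM with FGFRi (95% exact Poisson interval 1309.6 to 1330.2) and 578, 448, 398 and 382 CPM at 0, 0.75, 3 and 12 ng/ml FGF2. The level thus fell in the order of the conditions, with the largest step between FGFRi and 0 ng/ml. Of the 55 genes, 36 had their highest level with FGFRi. All 55 had at least 1 UMI at 12 ng/ml, and 52 to 54 did in the other libraries.

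For single genes, a difference between 2 libraries was called where the gene averaged at least 5 CPM over the 5 libraries and its CPM differed at least 2-fold. This is a rule of size, not a test. The level limit left 20 of the 55 genes, 10 of the 17 basement membrane and 6 of the 11 fibrillar ones, and 9741 of all genes. Col1a1, the member just above the limit, averaged 5.63 CPM, and Col8a1, the one just below it, averaged 4.80 CPM. Of the 20 genes, 15 were highest with FGFRi. The average includes the libraries compared, so the limit is not independent of a comparison with FGFRi. Col1a1, Col3a1 and Col12a1, at 24.2, 28.2 and 49.7 CPM with FGFRi, would among others not have passed without that library. Their calls, and the count of genes highest with FGFRi, rest partly on this. The same limit set the shares of all genes.

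From FGFRi to 0 ng/ml FGF2, 9 of the 20 were lower and 1 was higher by this rule, against 4.13% lower and 3.41% higher (7.54% either way) of all 9741 genes. Their median log2 ratio was -0.85, that of all genes 0.03. From 0 to 0.75 ng/ml, 6 were lower (1.7% of all genes) and 0 higher (0.4%, 2.1% either way), with a median log2 ratio of -0.25 against 0.00451 for all genes. From 0.75 to 3 ng/ml only Col3a1 was lower (1.01% of all genes), and none was higher (0.359%, 1.37% either way). From 3 to 12 ng/ml no gene was called in either direction, where 0.113% of all genes were lower and 0.0616% higher, 0.175% in all. Across the whole dose range, from 0 to 12 ng/ml, 7 were lower (4.54% of all genes) and 2 higher (1.76%, 6.29% either way). The median log2 ratio was -0.46 there, against 0.01 for all genes. The comparisons from 0 to 0.75 and from 0 to 12 ng/ml share the library without FGF2, as FGFRi to 0 ng/ml does, so their counts are not independent.

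**Figure D1:**
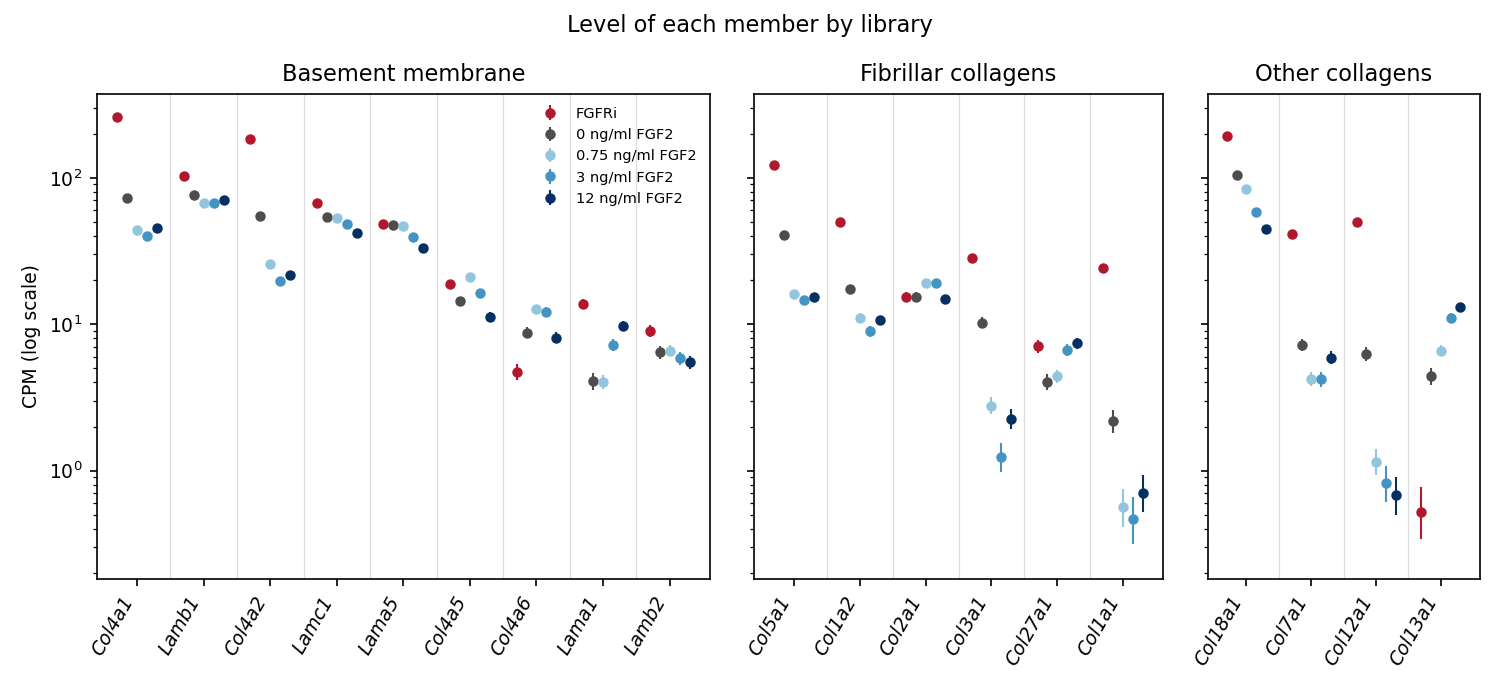
CPM (log axis) of collagen and laminin genes that averaged at least 5 CPM, colored by library (FGFRi, 0, 0.75, 3 and 12 ng/ml FGF2), with basement membrane, fibrillar and other collagens in separate panels; each point is 1 library and its bar the 95% exact Poisson interval, which covers counting error only. Col4a1, Col4a2, Col5a1, Col1a1, Col3a1 and Col12a1 are far lower at 0 ng/ml than with FGFRi, Lama5 and Col2a1 lie nearly level there, and Col13a1 goes from 0.523 to 13.1 CPM.

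Both main type IV collagen chains, α1 and α2, which assemble, with α1 in excess, into the trimer of most basement membranes, were far higher with FGFRi than in any other library. Col4a1 stood at 262 CPM with FGFRi and at 72.4, 44.2, 39.9 and 45.7 CPM at 0, 0.75, 3 and 12 ng/ml FGF2. Its level at 0 ng/ml was 3.61-fold lower than with FGFRi (log2 ratio -1.85, 95% interval -1.90 to -1.80). Col4a2 stood at 183 CPM with FGFRi and at 54.5, 25.7, 19.8 and 21.6 CPM at the 4 FGF2 doses. It was 3.35-fold lower at 0 ng/ml than with FGFRi (log2 ratio -1.74, -1.80 to -1.68), and 2.52-fold lower again at 12 ng/ml than at 0 (-1.33, -1.42 to -1.24). Col4a1 differed less over that range, by a log2 ratio of -0.66 (-0.73 to -0.60), and was not called.

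The balance between both chains moved accordingly. Col4a1 had 1.43 UMIs per Col4a2 UMI with FGFRi (95% interval 1.39 to 1.47) and 1.33 (1.27 to 1.39) at 0 ng/ml. At 0.75, 3 and 12 ng/ml the ratio was 1.72 (1.63 to 1.82), 2.01 (1.88 to 2.15) and 2.11 (1.99 to 2.24). The intervals of the 3 libraries with FGF2 lie above both others. This is a ratio of mRNA tags and does not measure the protein trimer.

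Both genes lie head to head on chromosome 8 of GRCm38, Col4a1 at chr8:11198423-11312826 on the minus strand and Col4a2 at chr8:11312805-11449287 on the plus strand. Their annotated 5' ends overlap by 22 bases. Windows from 250 bases before to 50 after each start therefore share 78 bases. On either strand, the Col4a1 window held 1 match to GGGCGG (the letters of a GC box) and 1 to CCAAT, and the Col4a2 window 3 and 1.

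The chains α5 and α6, which form a further type IV network, showed another pattern. Col4a5 stood at 18.8 CPM with FGFRi and at 14.3, 20.9, 16.3 and 11.3 CPM at the 4 FGF2 doses. Col4a6 stood at 4.73 CPM with FGFRi and at 8.77, 12.6, 12.1 and 8.11 CPM. Neither was called in any comparison, and both peaked at 0.75 ng/ml. Col4a6 was one of 2 basement membrane genes above the level limit whose highest level was not with FGFRi, and the other was Col4a5. The number of Col4a5 UMIs per Col4a6 UMI was 3.98 (3.44 to 4.63) with FGFRi and 1.34 to 1.65 in the other 4 libraries.

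These genes are also paired head to head, on chromosome X, with Col4a6 at chrX:141165403-141474076 on the minus strand and Col4a5 at chrX:141475385-141689234 on the plus strand. The stretch between them is 1308 bases. The parts of their promoter windows that lie before the starts are shown because the genes of this pair start next to each other yet differed in how they compared between FGFRi and the other libraries. They come from RefSeq on GRCm38.p6, at chrX:141474077-141474326 (minus strand) and chrX:141475169-141475384 (plus strand), each in the direction of its own gene. Capitals mark a GGGCGG match (read on the other strand as CCGCCC) for Col4a6 and a CCAAT match for Col4a5. The full Col4a5 window also held 1 GGGCGG match, in the part not shown, so the windows do not differ in that motif.
Col4a6: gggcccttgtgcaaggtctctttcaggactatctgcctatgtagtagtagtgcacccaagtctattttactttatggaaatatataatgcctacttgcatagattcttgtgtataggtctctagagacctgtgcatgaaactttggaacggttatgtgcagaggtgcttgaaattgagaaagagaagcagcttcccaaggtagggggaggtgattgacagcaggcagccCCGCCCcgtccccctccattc
Col4a5: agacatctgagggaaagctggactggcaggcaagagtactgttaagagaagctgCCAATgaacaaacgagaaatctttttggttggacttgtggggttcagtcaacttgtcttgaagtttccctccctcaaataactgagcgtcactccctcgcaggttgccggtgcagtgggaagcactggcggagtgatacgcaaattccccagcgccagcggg
The Col4a6 stretch has 47.6% and the Col4a5 stretch 52.3% G or C, where the median was 52.7% over all 32851 full windows and 59.5% over the 44 windows of collagen and laminin genes. Col4a3 and Col4a4, the other head-to-head pair, with 71 bases between them on chromosome 1, were both below 1 CPM in every library.

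Among the laminins, the β1 and γ1 chains, which are shared by the most widespread trimers, were the most abundant and varied little. Lamb1 stood at 103 CPM with FGFRi and at 76.1, 67.6, 67.1 and 70.5 CPM at the 4 FGF2 doses. Lamc1 stood at 67.1 CPM with FGFRi and at 54.3, 52.7, 48.6 and 41.7 CPM. From FGFRi to 0 ng/ml their log2 ratios were -0.44 (-0.49 to -0.38) and -0.31 (-0.38 to -0.23), outside counting error but under 2-fold. Lamb1 had 1.28 to 1.69 UMIs per Lamc1 UMI. Lamb2, the alternative β chain, stood between 5.50 and 8.95 CPM, so Lamb1 had 10.2 to 12.8 UMIs for each Lamb2 UMI.

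The 2 main α chains, which give a laminin its binding sites for cell receptors, parted. Lama5, common in epithelial basement membranes, stood at 48.6 CPM with FGFRi and at 47.9, 46.6, 39.2 and 33.2 CPM. From FGFRi to 0 ng/ml its log2 ratio was -0.02 (-0.10 to 0.06), the smallest difference among the basement membrane genes above the limit. Lama1, the α chain of the earliest embryonic basement membranes, stood at 13.8 CPM with FGFRi and at 4.08, 4.05, 7.24 and 9.76 CPM. It was high at both ends and lowest at 0 and 0.75 ng/ml: 3.38-fold lower at 0 ng/ml than with FGFRi (log2 ratio -1.76, -1.98 to -1.54) and 2.39-fold higher at 12 than at 0 ng/ml (1.26, 1.04 to 1.48). The number of Lama5 UMIs per Lama1 UMI was therefore 3.52 with FGFRi, 11.7 and 11.5 at 0 and 0.75 ng/ml, and 5.42 and 3.40 at 3 and 12 ng/ml.

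The other laminin chains Lama2, Lama3, Lama4, Lamb3 and Lamc3 were below the level limit, as were Col4a3 and Col4a4. These 7 genes stood between 0.0141 and 0.815 CPM in every library.

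Summed over the class, basement membrane genes stood at 724 CPM with FGFRi and at 349.8, 287, 259.9 and 252 CPM at the 4 FGF2 doses. Type IV collagens, at 469 CPM with FGFRi against 151 CPM at 0 ng/ml, had a log2 ratio of -1.64, and laminins, at 255 against 199 CPM, one of -0.36. The log2 ratio of the whole class was -1.05 (-1.08 to -1.02) from FGFRi to 0 ng/ml and -0.47 (-0.50 to -0.45) from 0 to 12 ng/ml. Without Col4a1, its most abundant member on average over the 5 libraries, it was -0.74 and -0.43. The summed class thus did not reach 2-fold without this 1 gene. By gene, 3 of the 10 above the limit were lower and 0 higher from FGFRi to 0 ng/ml (4.13% and 3.41% of all genes). From 0 to 12 ng/ml, 2 were lower and 1 higher (4.54% and 1.76% of all genes).

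**Figure D2:**
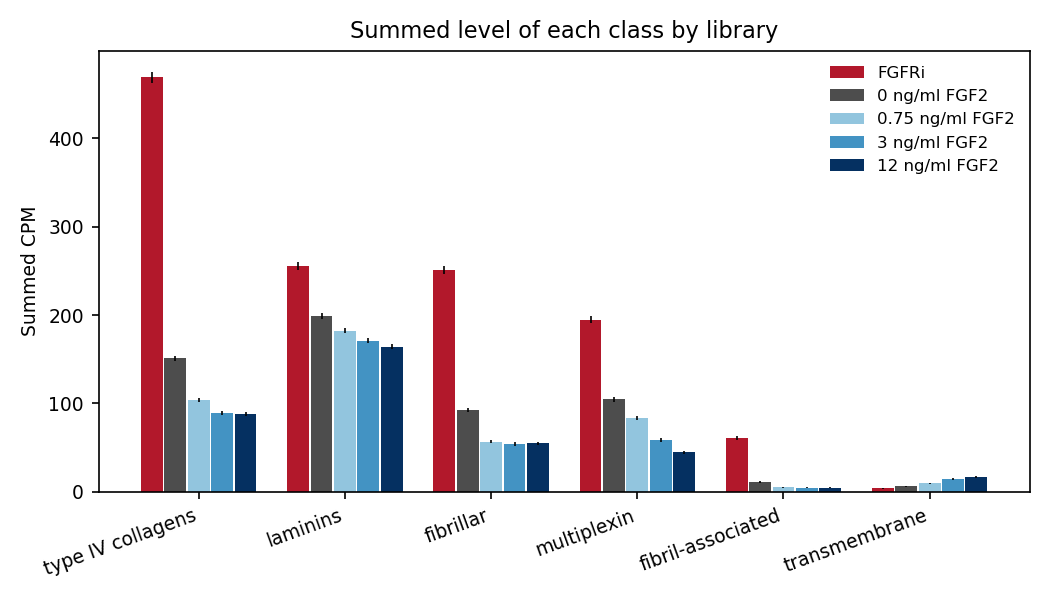
Summed CPM (linear axis from 0) of type IV collagens, laminins, fibrillar collagens, multiplexins, fibril-associated and transmembrane collagens, with 1 bar per library (FGFRi, 0, 0.75, 3 and 12 ng/ml FGF2); error bars are 95% exact Poisson intervals, which cover counting error only. Type IV collagens have the tallest bar, 469 CPM with FGFRi, laminins differ less between libraries, and only the transmembrane collagens among these 6 are lowest with FGFRi. Without Col13a1 the transmembrane collagens are not lowest there, at 3.58 CPM with FGFRi and 1.76, 2.73, 3.25 and 3.70 CPM at the FGF2 doses.

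Fibrillar collagens were lower in sum than basement membrane genes, and differed more from FGFRi to 0 and from 0 to 12 ng/ml. Type IV collagens alone differed more still, with log2 ratios of -1.64 and -0.78 in these comparisons. The class stood at 251 CPM with FGFRi and at 92.7, 56.3, 54.0 and 54.8 CPM at the 4 FGF2 doses. Its log2 ratio was -1.44 (-1.48 to -1.39) from FGFRi to 0 ng/ml and -0.76 (-0.82 to -0.70) from 0 to 12 ng/ml. Without Col5a1 it was -1.32 and -0.39. The latter is smaller than the -0.47 of the basement membrane class from 0 to 12 ng/ml. By gene, 4 of the 6 above the limit were lower and 0 higher in the first comparison (4.13% and 3.41% of all genes), with a median log2 ratio of -1.49. From 0 to 12 ng/ml, 3 of the 6 were lower and 0 higher (4.54% and 1.76% of all genes). Col1a1 and Col3a1, called lower in both comparisons, passed the level limit only through the library with FGFRi. These counts and the median rest partly on that. As a share of all collagen and laminin UMIs, fibrillar genes made up 19.0% with FGFRi, 16.04% at 0 ng/ml and 12.6% to 14.3% at the other doses, and basement membrane genes 54.9% with FGFRi and 60.6% to 65.9% elsewhere.

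Col5a1, whose chain sets the diameter of type I fibrils, was the most abundant fibrillar gene with FGFRi. It stood at 122 CPM with FGFRi and at 41.0, 16.005, 14.6 and 15.3 CPM at the 4 FGF2 doses. It was 2.98-fold lower at 0 ng/ml than with FGFRi (log2 ratio -1.58, -1.65 to -1.51) and 2.68-fold lower again at 12 ng/ml (-1.42, -1.53 to -1.32). Col5a2, the usual partner chain of Col5a1, was nearly absent at 0.0613 to 0.397 CPM, so Col5a1 had 189 to 332 UMIs for each Col5a2 UMI.

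The chains of type I and type III collagen, the main collagens of mesenchyme, were detected at lower levels. Col1a2 stood at 49.97 CPM with FGFRi and at 17.4, 11.1, 8.95 and 10.6 CPM, and Col1a1 at 24.2 CPM with FGFRi and at 2.18, 0.564, 0.464 and 0.706 CPM. Col1a1 had the largest difference of all 20 genes from FGFRi to 0 ng/ml, 11.1-fold (log2 ratio -3.47, -3.75 to -3.20), and that of Col1a2 was 2.87-fold (-1.52, -1.63 to -1.42). Type I collagen is built from α1 and α2 chains with α1 in excess. The mRNA tags went the other way, with 2.06 (1.92 to 2.22) Col1a2 UMIs per Col1a1 UMI with FGFRi, 7.97 (6.60 to 9.68) at 0 ng/ml and 15.1 to 19.7 at the other doses. Col3a1 stood at 28.2 CPM with FGFRi and at 10.2, 2.77, 1.24 and 2.26 CPM. It was the only member called lower, by at least 2-fold, at each of the first 3 steps of the series: 2.75-fold lower from FGFRi to 0 ng/ml (log2 ratio -1.46, -1.60 to -1.32) and 4.53-fold lower from 0 to 12 ng/ml (-2.18, -2.44 to -1.93).

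Col2a1, best known from cartilage and notochord, was flat, at 15.4 CPM with FGFRi and at 15.4, 19.0, 19.2 and 14.8 CPM at the 4 FGF2 doses. Col27a1, a short fibrillar collagen of cartilage, stood at 7.05 CPM with FGFRi, at 4.03 and 4.42 CPM at 0 and 0.75 ng/ml, and at 6.70 and 7.43 CPM at 3 and 12 ng/ml. Neither was called. The 5 fibrillar genes below the limit, Col5a2, Col5a3, Col11a1, Col11a2 and Col24a1, stood between 0 and 2.49 CPM.

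**Figure D3:**
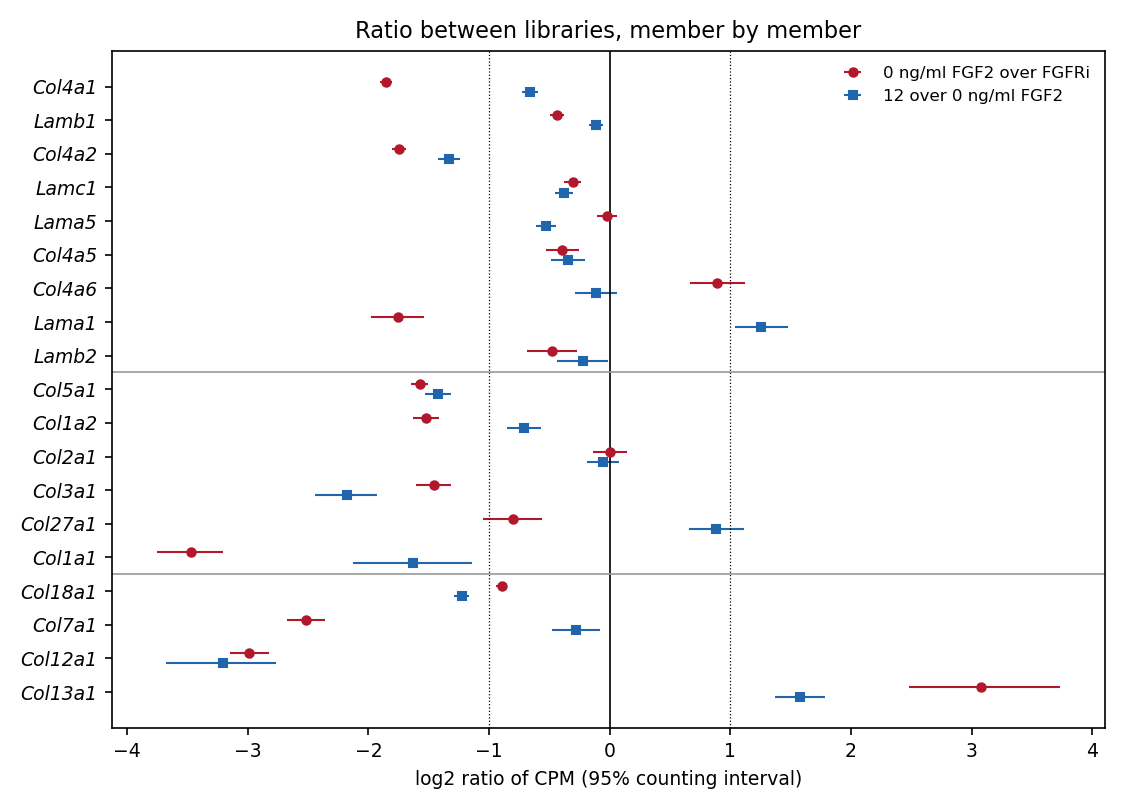
Log2 ratio of CPM for single genes in 2 comparisons, 0 ng/ml FGF2 over FGFRi (circles) and 12 over 0 ng/ml FGF2 (squares); bars are 95% exact counting intervals, dotted lines mark 2-fold and horizontal lines part basement membrane, fibrillar and other collagens. In the first comparison Col1a1 (-3.47) and Col12a1 (-2.99) lie farthest below 0 and Col13a1 (3.07) farthest above, and both comparisons share the library at 0 ng/ml.

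The other collagens above the level limit differed among themselves. Col18a1, whose chain carries heparan sulfate in basement membranes and gives rise to endostatin, was the second most abundant member with FGFRi at 194 CPM and stood at 104, 83.7, 58.5 and 44.6 CPM at the 4 FGF2 doses. It was 2.34-fold lower at 12 than at 0 ng/ml (log2 ratio -1.23, -1.29 to -1.16). Col12a1, which binds to the surface of type I fibrils, stood at 49.7 CPM with FGFRi and at 6.27, 1.15, 0.820 and 0.678 CPM. It was 7.93-fold lower at 0 ng/ml than with FGFRi and 9.24-fold lower again at 12 ng/ml. Col7a1, which forms the anchoring fibrils below epithelial basement membranes, stood at 41.2 CPM with FGFRi and between 4.21 and 7.20 CPM elsewhere. Its level at 0 ng/ml was 5.73-fold below that with FGFRi (log2 ratio -2.52, -2.68 to -2.36).

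Col13a1, a collagen that stays in the plasma membrane, was the only member called higher from FGFRi to 0 ng/ml. It stood at 0.523 CPM with FGFRi and at 4.40, 6.57, 11.1 and 13.1 CPM at 0, 0.75, 3 and 12 ng/ml. Its level was higher in each library than in the one before. From FGFRi to 0 ng/ml it was 8.42-fold higher (log2 ratio 3.07, 2.48 to 3.73), and from 0 to 12 ng/ml 2.98-fold higher (1.58, 1.37 to 1.78).

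Below the level limit, Col8a1 was found almost only with FGFRi, and others were highest there. This short-chain collagen of vessel walls stood at 22.5 CPM with FGFRi and at 1.13, 0.135, 0.170 and 0.0706 CPM elsewhere. Col26a1 stood at 11.7 CPM with FGFRi against 0.712 to 2.61 CPM, and Col14a1, a fibril-associated collagen, at 6.02 CPM against 0.387 to 1.36 CPM. The beaded filament genes (Col6a1 to Col6a6, the type VI collagens) summed to 6.29 CPM with FGFRi and to 1.83 to 2.47 CPM at the FGF2 doses.

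Promoter sequences are shown for Col5a1, the fibrillar gene most abundant on average over the libraries, and for Col13a1, which moved the opposite way. Both are the 250 bases before the annotated start in RefSeq on GRCm38.p6, Col5a1 at chr2:27886175-27886424 on the plus strand and Col13a1 at chr10:61979109-61979358 on the minus strand, each in the direction of the gene. Capitals mark GGGCGG matches, also as CCGCCC on the other strand, in Col5a1 and a TATAAA match in Col13a1.
Col5a1: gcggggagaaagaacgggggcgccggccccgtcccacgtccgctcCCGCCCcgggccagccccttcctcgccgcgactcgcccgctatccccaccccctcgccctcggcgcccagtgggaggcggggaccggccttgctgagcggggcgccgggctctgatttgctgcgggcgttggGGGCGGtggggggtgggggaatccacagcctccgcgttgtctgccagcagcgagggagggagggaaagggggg
Col13a1: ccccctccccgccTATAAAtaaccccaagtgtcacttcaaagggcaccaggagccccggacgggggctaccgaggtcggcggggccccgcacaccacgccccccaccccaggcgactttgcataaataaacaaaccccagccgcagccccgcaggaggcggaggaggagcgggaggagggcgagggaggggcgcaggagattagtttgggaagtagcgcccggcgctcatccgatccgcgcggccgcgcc
The Col5a1 stretch has 76.4% and the Col13a1 stretch 68.8% G or C, both above the medians of 52.7% and 59.5% given above. Of the 55 genes, 40 had a window in the reference, 44 windows in all. In full windows and on both strands, GGGCGG was found in 26 of these 44 (59.1%, against 35.7% of all 32851), CCAAT in 14 (31.8% against 37.4%), TATAAA in 5 (11.4% against 13.6%) and TGANTCA, the letters bound by AP-1 factors, in 1 (2.27% against 7.81%). None of these 4 motifs contains another. A match describes the sequence and is not evidence of binding.

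At the level of single cells, Col4a1 and Col4a2 were found in most cells with FGFRi. The other type IV chains, like those of types I and III, were found in fewer. To compare libraries at the same depth, cells were thinned to 10000 UMIs, which left out 9 to 39 cells per library. At that depth 77.3% of cells had a Col4a1 UMI with FGFRi and 40.4%, 31.7%, 29.8% and 33.9% at the 4 FGF2 doses (90.4%, 67.7%, 56.8%, 58.0% and 62.3% unthinned). For Lamb1 the share was 61.9% with FGFRi and 45.3% to 47.8% elsewhere, and for Lama5 34.4% with FGFRi and 26.2% to 36.0% elsewhere. With FGFRi, Col4a2 was found in 71.4%, Col4a5 in 17.2% and Col4a6 in 4.21% of cells. Col1a2 was found in 20.9%, Col3a1 in 16.4% and Col1a1 in 7.34% of cells there. Col5a1 was found in 55.0% of cells with FGFRi, in 24.1% at 0 ng/ml and in 9.79% to 10.9% at the other doses. Col12a1 was found in 29.5% with FGFRi, 4.71% at 0 ng/ml and 0.776% to 0.898% at the other doses. Col13a1 went from 0.782% with FGFRi to 5.54%, 5.395%, 9.08% and 11.2%. No cell type that should lack these genes was at hand to measure free RNA, so the lowest of these shares are not read as cells that express the gene.

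With FGFRi, Col1a1 was held by few cells, a measure added after the levels were known. The 5% of cells with the most Col1a1 UMIs had 87.2% of them, and 1 cell had 128. For Col3a1 this share was 52.5% with FGFRi, and for Col1a2 it was 56.4% to 60.03% in all 5 libraries. Lamb1, by contrast, had 17.7% to 20.9% of its UMIs in the top 5%, and Col4a1 23.9% to 30.1%. Genes with few UMIs also had high shares with FGFRi, 56.2% for Col4a6 and 60.2% for Col27a1. The share alone thus does not tell a gene held by few cells from a scarce one. The ratio of variance to mean across cells thinned to 10000 UMIs was 6.08 for Col1a1, 4.16 for Col1a2 and 2.85 for Col3a1 with FGFRi. It was 2.30 for Col4a1 there, and 1.10 to 1.26 for Lamb1 and Lamc1 over all libraries, near the value of 1 that counting alone gives. The high Col1a1 level of the library with FGFRi is thus that of a small set of cells, and the high Col4a1 level is not.

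Pairs of genes, among them chains that join in 1 trimer, were found in the same cells to different degrees. With FGFRi, 61 thinned cells had both Col1a1 and Col1a2, where the product of their shares gives 25.5, a ratio of 2.39 (95% interval 1.83 to 3.07). For Col1a1 and Col3a1, chains of different collagen types, the ratio was 2.25 (1.64 to 3.02). For Lama1 and Col1a1, a laminin and a collagen, it was 2.13 (1.42 to 3.08). Col4a1 had ratios of 0.902 (0.720 to 1.12) with Col1a1 and 0.957 (0.829 to 1.10) with Col3a1. For Col4a1 and Col4a2 it was 1.08 (1.01 to 1.15) with FGFRi, where most cells had each, and 1.30 to 1.39 at the FGF2 doses, with all 4 lower bounds above 1. Col4a5 and Col4a6 met in the same cells more often, at ratios of 1.49 (0.886 to 2.36) with FGFRi and 1.82 to 2.36 elsewhere. Lamb1 and Lamc1 had ratios of 1.03 to 1.10 with every interval spanning 1. The alternative α chains Lama5 and Lama1 stood at 0.652 to 0.846, with the interval below 1 only at 12 ng/ml (0.652, 0.462 to 0.895). Cells of unequal state in a library raise or lower such ratios, so they describe the libraries and not a link between genes.

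**Figure D4:**
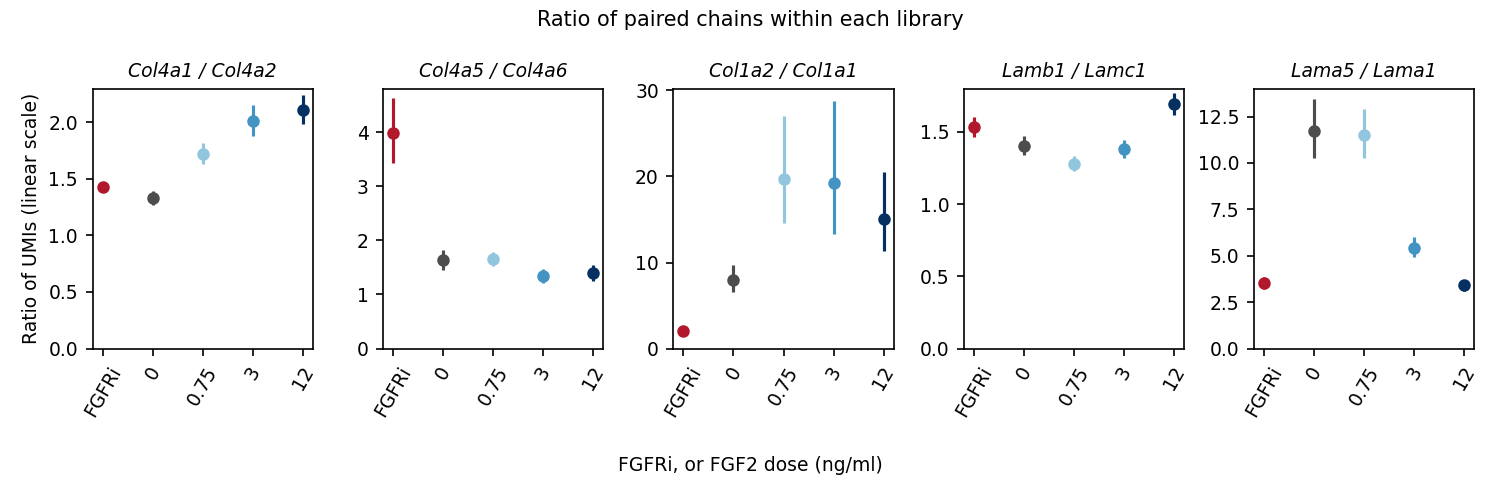
Ratio of UMIs of paired collagen and laminin chains (linear axis from 0, scaled for each pair) by library in the order FGFRi, 0, 0.75, 3 and 12 ng/ml FGF2, with 95% exact counting intervals. Col4a1 over Col4a2 goes from 1.33 at 0 to 2.11 at 12 ng/ml, Lama5 over Lama1 is highest at 0 and 0.75 ng/ml, Col4a5 over Col4a6 is highest and Col1a2 over Col1a1 lowest with FGFRi, and Lamb1 over Lamc1 stays between 1.28 and 1.69.

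Cells that become mesoderm exchange E-cadherin (Cdh1), the cadherin of epithelia, for N-cadherin (Cdh2). Cells with a UMI of only one of these genes were therefore compared within each library. Cells with Cdh2 alone made up 36.7% of the library with FGFRi and 28.7%, 38.8%, 53.9% and 58.7% at 0, 0.75, 3 and 12 ng/ml FGF2, and those with Cdh1 alone 36.3%, 43.3%, 38.7%, 20.8% and 14.1%. Both classes had like depth, with medians of 24053 and 23608 UMIs with FGFRi. Cells with both cadherins or neither, which are deeper or shallower, were left out. A class defined by a UMI is a rough one, since a cell can express a cadherin without a UMI.

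Lama1 and Col13a1 were higher in the cells with Cdh2 alone in every library. The Lama1 level there was 4.14, 8.64, 7.65, 9.02 and 9.65 times that of cells with Cdh1 alone, in the order FGFRi, 0, 0.75, 3 and 12 ng/ml. For Col13a1 the ratio was 17.3 to 29.1 at the FGF2 doses, and 22.4 (3.59 to 924) with FGFRi, where it rests on 1 UMI in the cells with Cdh1 alone. Lama5 was higher in the cells with Cdh1 alone in every library, at ratios of 0.362 to 0.4995. Laminin α chains were thus split between the classes, α5 with Cdh1 and α1 with Cdh2, while Lamb1 (0.592 to 0.913) and Lamc1 (0.582 to 1.13) differed by less than 2-fold.

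Among the fibrillar genes, Col3a1, Col1a2 and Col5a1 were higher in the cells with Cdh2 alone with FGFRi and lower there at 12 ng/ml, while Col1a1, Col2a1 and Col27a1 had ratios above 1 in every library. With FGFRi, cells with Cdh2 alone had 24.3 times (17.9 to 33.7) the Col3a1, 20.1 times (14.4 to 28.7) the Col1a1, 5.004 times the Col1a2 and 2.02 times the Col5a1 level of cells with Cdh1 alone. At 0 ng/ml the ratios were 4.03, 3.26, 0.793 and 0.603. At 12 ng/ml they were 0.328 for Col3a1, 1.38 (0.468 to 5.50) for Col1a1, 0.764 for Col1a2 and 0.780 for Col5a1. The summed fibrillar class stayed above 1, at 3.18 with FGFRi and 1.34 to 1.83 at the FGF2 doses. At these doses Col2a1 was the largest part of the sum in cells with Cdh2 alone. It held 31.4, 34.2, 27.3 and 16.5 CPM of 87.6, 63.9, 59.5 and 53.3 CPM, so the ratio of the sum does not describe each fibrillar gene. For Col2a1 and Col27a1 the ratio was lowest with FGFRi: the Col2a1 ratio was 1.24 (1.03 to 1.51) with FGFRi and 4.03 to 5.98 at the FGF2 doses, and the Col27a1 ratio was 1.46 with FGFRi and 3.97 to 6.56 elsewhere.

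The type IV pairs moved in opposite directions in this respect. For Col4a1 the ratio was 0.596 with FGFRi and 0.626, 0.921, 1.16 and 1.36 at the 4 FGF2 doses, moving toward the cells with Cdh2 alone as the dose rose. Col4a5 went from 1.45 with FGFRi to 0.881, 0.5598, 0.415 and 0.274. Col4a6 went from 2.86 with FGFRi to 1.13, 0.616, 0.474 and 0.317. At 12 ng/ml the α5 and α6 chains were thus more abundant in the cells with Cdh1 alone, and with FGFRi in the cells with Cdh2 alone.

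**Figure D5:**
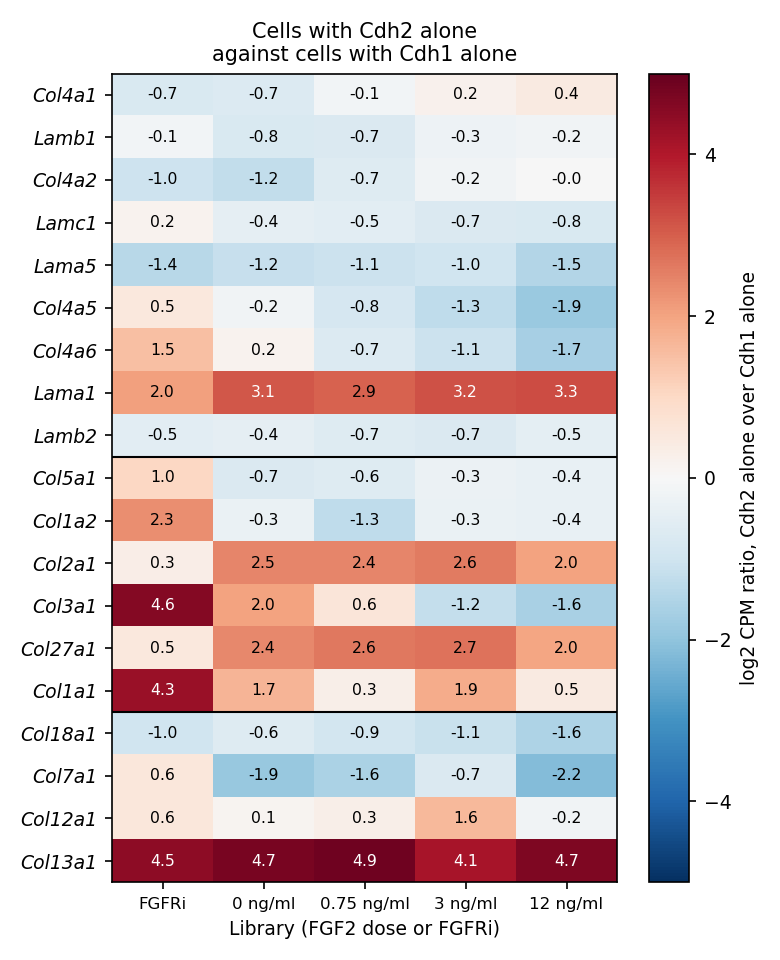
Heat map of the log2 ratio of CPM in cells with Cdh2 alone over cells with Cdh1 alone, with genes as rows and libraries (FGFRi, 0, 0.75, 3 and 12 ng/ml FGF2) as columns; red and positive values are higher in cells with Cdh2 alone, blue and negative ones in cells with Cdh1 alone, and horizontal lines part basement membrane, fibrillar and other collagens. Lama1 and Col13a1 are red and Lama5 is blue in every library, and Col3a1 turns from red with FGFRi to blue at 3 and 12 ng/ml.

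Because the share of each class differed between libraries, the libraries were also compared within a class, a comparison chosen after the levels were known. From FGFRi to 0 ng/ml, Col4a1 was lower to a like extent in both, from 293 to 75.5 CPM in cells with Cdh1 alone (log2 ratio -1.96, -2.04 to -1.88) and from 175 to 47.3 CPM in cells with Cdh2 alone (-1.89, -2.01 to -1.77). Col12a1 was lower in both as well (-3.36 and -3.79). The fibrillar genes differed among themselves. Col3a1 went from 60.7 to 9.29 CPM in those (log2 ratio -2.71, -2.97 to -2.45) and from 2.50 to 2.31 CPM in cells with Cdh1 alone (-0.12, -0.72 to 0.49). Col1a2 went from 72.2 to 11.5 CPM with Cdh2 alone (log2 ratio -2.65) and stayed at 14.4 and 14.5 CPM with Cdh1 alone. Col5a1 and Col1a1 were lower in both classes, at log2 ratios of -2.77 and -3.95 with Cdh2 alone and -1.03 and -1.33 with Cdh1 alone. Col27a1 and Col2a1 were at least 2-fold lower in cells with Cdh1 alone, at log2 ratios of -1.93 and -1.07. In cells with Cdh2 alone Col27a1 stood at 6.88 and 6.57 CPM, and Col2a1 went up from 14.99 to 31.4 CPM (log2 ratio 1.07).

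From 0 to 12 ng/ml, the higher Lama1 and Col13a1 levels did not reach 2-fold within a class. In cells with Cdh2 alone, Lama1 went from 9.22 to 14.5 CPM (log2 ratio 0.65, 0.38 to 0.93) and Col13a1 from 12.5 to 20.2 CPM (0.70, 0.47 to 0.93), against 1.26 and 1.58 over all cells. The share of cells with Cdh2 alone was 28.7% at 0 and 58.7% at 12 ng/ml, and its part in the result was not tested. Col4a5 and Col4a6, nearly level over all cells, moved in opposite directions. Col4a6 went from 8.67 to 17.8 CPM in cells with Cdh1 alone (log2 ratio 1.04, 0.74 to 1.33) and from 9.75 to 5.63 CPM in cells with Cdh2 alone (-0.79, -1.10 to -0.48). Col4a5 did likewise, at log2 ratios of 0.80 and -0.88. Col18a1 was lower mainly in cells with Cdh2 alone, at -1.34 against -0.43. Col4a1 and Col4a2 were at least 2-fold lower in cells with Cdh1 alone, from 75.5 to 37.1 and from 65.2 to 22.2 CPM. In cells with Cdh2 alone they went from 47.3 to 50.3 and from 28.0 to 21.7 CPM. Summed over the whole class, where genes moved in both directions, basement membrane genes differed by -0.30 with Cdh1 alone and -0.04 with Cdh2 alone.

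Genes that make, bind or remodel collagen were compared by the same rule. Of all genes, it called 4.13% lower and 3.41% higher from FGFRi to 0 ng/ml. From 0 to 12 ng/ml it called 4.54% lower and 1.76% higher. The level limit again includes the library with FGFRi, and some listed genes, such as Pcolce, would not have passed without it. Calls in these lists and in the marker lists below rest partly on this. Of 25 listed enzymes and chaperones of collagen folding and processing, 17 were above the level limit, and 3 were lower and 0 higher at 0 ng/ml than with FGFRi. Plod2, a lysyl hydroxylase, went from 194 to 48.2 CPM (log2 ratio -2.01), Pcolce, which enhances procollagen cleavage, from 33.3 to 7.57 CPM (-2.14), and P3h1, a prolyl hydroxylase, from 17.3 to 7.76 CPM (-1.16). Pcolce2 moved the other way, from 6.11 CPM at 0 to 25.04 CPM at 12 ng/ml. Of 2 cross-linking enzymes above the limit, Loxl2 was lower at 0 ng/ml, with 131 CPM with FGFRi and 22.6, 10.8, 13.7 and 14.3 CPM at the 4 FGF2 doses.

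Of 9 other basement membrane proteins above the limit, 3 were lower and 1 higher at 0 ng/ml than with FGFRi. The shares of all genes, 4.13% lower and 3.41% higher, apply to each list here. Nid1, which links laminin to type IV collagen, went from 20.7 to 4.93 CPM, Sparc, a collagen-binding protein, from 878 to 337 CPM, and Npnt from 51.1 to 24.6 CPM, while Smoc1 went from 3.16 to 11.1 CPM. Interstitial matrix proteins were the matrix list with the largest share of calls, with 8 of 11 lower and 0 higher and a median log2 ratio of -1.50. Among them Postn went from 24.3 to 1.94 CPM, Tnc from 78.8 to 16.5 CPM, Thbs1 from 179 to 38.1 CPM and Ccn2 from 31.0 to 10.1 CPM. Postn and Ccn2, like Nid1, passed the level limit only through the library with FGFRi. Of 7 collagen and laminin receptors above the limit, Itgb1, the β1 integrin, was lower (617 to 286 CPM, log2 ratio -1.11). From 0 to 12 ng/ml 3 receptors were lower (4.54% of all genes), the integrin Itga3 (24.9 to 7.12 CPM), Bcam (35.0 to 13.3 CPM) and Ddr1 (24.1 to 10.4 CPM). Of 7 proteases and inhibitors, 4 were lower and 0 higher from FGFRi to 0 ng/ml, among them Mmp14 (73.0 to 22.4 CPM), Mmp2 (12.4 to 4.08 CPM) and Timp3 (83.2 to 27.8 CPM).

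Markers of other cell types also differed between libraries, in lists chosen with earlier results of these data known. All 8 mesenchyme and smooth muscle markers were above the limit, and 7 were lower at 0 ng/ml than with FGFRi (4.13% of all genes). Their summed level was 4134.6 CPM with FGFRi and 1071, 318, 134 and 164 CPM at the 4 FGF2 doses, with Tagln, a smooth muscle actin-binding protein, at 1915 CPM and Acta2, smooth muscle actin, at 1008 CPM with FGFRi. Surface ectoderm and epithelial markers summed to 2873 CPM with FGFRi and 2521, 1855.45, 1031 and 981 CPM, led by the keratins Krt18 and Krt8, and none of 8 was called from FGFRi to 0 ng/ml. In sum, mesoderm markers went the other way, from 69.9 CPM with FGFRi to 235, 359.8, 531 and 528 CPM. From FGFRi to 0 ng/ml 5 of 6 were higher (3.41% of all genes). T was at 0.753 CPM and Cdx2 at 4.64 CPM with FGFRi, while Hand1 stood at 63.5 CPM there and made up most of that sum. Hand1 went from 85.7 CPM at 0 to 32.7 CPM at 12 ng/ml, the 1 mesoderm marker called lower in that comparison. The part of these cell types in the collagen and laminin levels was not tested.

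Most markers of cell types with heavy basement membrane production were below the level limit. Of 12 definitive and visceral endoderm markers none was above the level limit, and they summed to 3.01 to 7.99 CPM, with Hhex and Sox17 the highest. Of 8 parietal endoderm markers 2 were above it. Cited1, also active in mesoderm, went from 46.4 CPM with FGFRi to 224 CPM at 12 ng/ml, and Dab2 from 16.7 to 2.77 CPM. Below the limit, Plat, Pth1r and Gata6 were, like Dab2, highest with FGFRi, at 13.1, 9.41 and 6.398 CPM. At the FGF2 doses Plat, Pth1r and Gata6 stood at 1.34 to 3.71, 1.86 to 4.22 and 1.68 to 5.44 CPM. The remaining markers were below 1 CPM in every library and not highest with FGFRi, and Thbd was at 0 throughout. Endothelial markers summed to 1.13 to 7.97 CPM, highest with FGFRi, with Pecam1 at 3.91 and Kdr at 3.51 CPM there. Fibroblast markers summed to 9.52 to 25.1 CPM, of which Pdgfra, also a mesoderm gene, alone was above the limit. Pdgfra stood at 4.10 CPM with FGFRi and was highest at 12 ng/ml, at 18.1 CPM, and Thy1 was highest there too. Below the limit, S100a4, Pdgfrb, Dcn and Lum were highest with FGFRi, at 10.3, 6.77, 2.17 and 1.38 CPM. The epiblast markers, led by Dnmt3b and Sox2, summed to 64.2 CPM with FGFRi and up to 125 CPM at the FGF2 doses. Otx2 and Fgf5, both below the limit, went the other way. Otx2 stood at 12.0 CPM with FGFRi and 1.56 to 2.57 CPM elsewhere, and Fgf5 at 1.40 and 0.155 to 0.317 CPM.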

How the data were processed

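The authors deposited unnormalized UMI counts by gene and barcode for 5 droplet-based 3' libraries (chemistry v3.1), aligned to mm10; the files' headers name Cell Ranger 5.0.1. Barcodes with at least 2500 genes and at most 10% mitochondrial UMIs were kept, as in the study's methods. No doublet caller was run, and leaving out the 5% deepest cells stood in for one. Counts were summed per library and given as CPM (1000000 UMIs). All 55 genes, the lists and the naming rule were chosen with earlier results of these data known. Listed matrix genes were named where called in any comparison, at most 4 per list by size, and at most 2 per marker list by level. Hand1, Plat, Pth1r, Gata6, Thbd, Otx2, Fgf5, Pdgfrb, Dcn, Lum and Thy1 were named outside this rule.

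With 1 library per condition no test was possible. A call needed a mean of 5 CPM and a ratio of 2. Intervals (95%) are exact Poisson, binomial or conditional ones and cover counting error only. The script was tested on simulated data. One item is counted in the totals but not reported here by name. Total UMIs of retained cells were 47824660 to 81538748 per library, so 3 UMIs, the limit a count of 0 allows, are 0.0368 to 0.0627 CPM. All 55 genes matched GENCODE vM21 on GRCm38. None of the 20 genes above the limit shared exon bases with another gene on its own strand, and 3 (Col4a1, Col4a2, Col5a1) did on the other. Whether reads were counted by strand is not given in the sources used here. Analyses used Python 3.11.15, numpy 2.4.6, scipy 1.17.1, pandas 2.3.3 and, for TMM factors, edgeR 4.0.16. Alternatives were other level and ratio limits, cell filters, cell weights, TMM scaling, depths and classes without the gene most abundant on average.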

Additional observations from a re-analysis of the deposited data

How the results depend on the processing

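No paired analysis was possible because each condition was 1 library and the labels give no replicate numbers. No member ratio called in any comparison fell below 2-fold or turned when ratios were taken from 5 recomputed levels. These were a 5% mitochondrial limit, all barcodes, equal cell weights, TMM and no deepest cells. Of 500 ratios, 490 were rated the same. For a called ratio this meant at least 2-fold in the same direction, and for the others a value inside the counting interval. Col1a1 fell below the mean of 5 CPM when every cell had the same weight, so its calls were lost there. Of the 19 members left, 8 were then lower from FGFRi to 0, 5 from 0 to 0.75 and 6 from 0 to 12 ng/ml. Of all genes, 7.59%, 1.9% and 6.25% were called either way in these comparisons. The number of called members, 10, 6, 1, 0 and 9 for FGFRi to 0, 0 to 0.75, 0.75 to 3, 3 to 12 and 0 to 12 ng/ml, moved with the limits, as did the share of all genes called. A mean of 50 CPM gave 2, 1, 0 and 2 for all but 3 to 12 ng/ml (4.38%, 1.36%, 0.51% and 3.5% of all genes), and a mean of 1 CPM gave 17 for FGFRi to 0, 1 for 3 to 12 and 14 for 0 to 12 ng/ml (10.9%, 0.57% and 9.33%). A limit of 10 CPM in either library gave 3 for 0 to 0.75, 0 for 0.75 to 3 and 5 for 0 to 12 ng/ml (1.72%, 0.859% and 5.91%). From FGFRi to 0 ng/ml it gave 11 lower and 0 higher (7.99% either way), and Col13a1 was under that limit there. A ratio of 1.5 gave 5 for 0.75 to 3 and 2 for 3 to 12 ng/ml (4.49% and 1.4%), and the 5% mitochondrial limit 1 for 3 to 12 ng/ml, Col8a1 (0.216%). The basement membrane sum from FGFRi to 0 ng/ml had a log2 ratio of -1.10 over all barcodes and -0.74 without Col4a1, and from 0 to 12 ng/ml -0.42 with equal cell weights, -0.44 without the deepest cells and -0.43 without Col4a1. The fibrillar sum gave -1.50 over all barcodes and -1.32 without Col5a1 from FGFRi to 0 ng/ml, and -0.69 with equal cell weights and -0.39 without Col5a1 from 0 to 12 ng/ml. Cadherin classes set after thinning moved 24 of 99 ratios and turned none of those that were at least 2-fold. Turns of weaker ratios were not counted.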
